A study of Homo sapiens with 19 samples.

Results

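The 10 genes FOS, FOSB, FOSL1, JUN, JUNB, JUND, EGR1, IER2, IER3 and NR4A1 were followed through RNA and chromatin of U2OS cells, an established human osteosarcoma line, in which EP400 had been depleted. EP400 is the ATPase subunit of a chromatin remodelling complex that also acetylates histones and exchanges histone variants. The genes were taken by name, through the RefSeq identifiers of the deposited RNA table, and all 10 were found among its 24198 genes. 9 of them were among the 11671 genes analysed for RNA, which had a mean level of 1 FPKM or more (fragments corrected for transcript length and for the size of the library), and FOSB was below it. Cells were harvested 72 hr after transfection with siRNA against EP400, or with a mock siRNA directed against green fluorescent protein. The series holds 19 samples. Chromatin immunoprecipitation (ChIP) was done in each condition for RNA polymerase II (Pol II), for 2 histone variants, H3.3 and H2AZ, and for MED26, a subunit of Mediator. Peaks of H3K18ac and H3K4me1, which are histone marks, came from mock cells alone, and EP400 was precipitated 3 times, with 1 list of peaks for all. The labels do not say which siRNA the cells for EP400 ChIP had received. The 4 input libraries were not analysed here. Of these, 1 came from cells with EP400 siRNA and the others belong to the EP400 ChIP, so no input is labelled as mock.

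Each comparison of mock with EP400 siRNA rests on 1 library per condition in 1 cell line, so no difference below has a replicate check or a p-value. The authors deposited a lower and an upper confidence limit with the FPKM of each transcript, and these are given in brackets. For genes with several transcripts, among them FOSB, FOSL1 and NR4A1, the brackets hold sums of these limits. Such sums are not the authors' limits for the gene. The limits are wide, with a median upper limit 119.7% above the FPKM in the mock library, and they lay apart between the libraries for 0.214% of all genes and for 0 of the 10. Depth is unknown, because FPKM carry no counts and the peak lists carry positions without heights. In bulk RNA, fewer cells that make a transcript and less of it per cell cannot be told apart. The RNA of EP400 itself stood at 10.04 FPKM [0.165 to 19.9] after mock siRNA and at 2.28 [0.162 to 4.41] after EP400 siRNA, 22.8% of mock. Its log2 ratio, as defined below, was -1.75 as deposited and -1.24 when both libraries were rescaled to equal sums. Of 8 markers of mesenchymal and bone-forming cells, 6 had a mean of 1 FPKM or more, and their sum was 1244 and 1452 FPKM. They did not go one way, with VIM at 618 and 1132 FPKM, COL1A1 at 376 and 60.8, SPARC at 229 and 179, RUNX2 at 1.51 and 0.697, ALPL at 2.31 and 7.75, CD44 at 16.4 and 72.0, NT5E at 0 and 0.544, and COL1A2 near 0 in both. Of the blood cell markers, PTPRC stood at 0.00835 and 0.0294 FPKM and CD14 at 0.329 and 0.257, and CD3E was listed at 0 in both libraries. KRT8 and KRT18 were present among 6 epithelial markers, while CDH1 stood at 0.0472 FPKM in mock. TUBB3, of 4 neural markers the only one at a mean of 1 FPKM or more, was at 186 and 66.3 FPKM, and 0 of 4 endothelial markers reached that level.

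AP-1 is a dimer of leucine zipper proteins, in which a JUN protein (JUN, JUNB or JUND) pairs with another JUN protein or with a FOS protein (FOS, FOSB, FOSL1 or FOSL2). Immediate-early genes such as FOS, EGR1, IER2 and NR4A1 are switched on within minutes of a growth factor, serum or stress signal, without new protein synthesis, through factors that already sit at their promoters. SRF with its TCF partners binds the CArG box, CREB and ATF proteins bind the cyclic AMP response element (CRE), and much of the control lies in release of paused Pol II by elongation factors that Mediator helps to recruit. H3.3 and H2AZ are histone variants found at the nucleosomes of active promoters and enhancers.

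The bases before the transcription starts are shown first, because the ChIP results below turn on the chromatin at these starts. The 250 bases before the start, from RefSeq on GRCh38.p14 and printed 5′ to 3′ on the strand of the gene, were searched for elements through which such genes are known to answer signals. The window is short, and known elements that lie farther upstream, such as the serum response element of FOS, are outside it. Capitals mark matches to TGACG, the core of the CRE, and to the full CRE TGACGTCA and the variant TGACATCA (either strand), to TATAA (strand of the gene) and to the CArG box (either strand).
FOS, chr14:75278578-75278827, plus strand: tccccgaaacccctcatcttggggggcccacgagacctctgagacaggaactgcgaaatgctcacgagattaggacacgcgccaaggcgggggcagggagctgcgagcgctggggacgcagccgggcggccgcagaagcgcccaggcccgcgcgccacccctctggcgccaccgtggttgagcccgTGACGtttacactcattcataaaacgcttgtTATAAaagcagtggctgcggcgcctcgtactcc
JUN, chr1:58784048-58784297, minus strand: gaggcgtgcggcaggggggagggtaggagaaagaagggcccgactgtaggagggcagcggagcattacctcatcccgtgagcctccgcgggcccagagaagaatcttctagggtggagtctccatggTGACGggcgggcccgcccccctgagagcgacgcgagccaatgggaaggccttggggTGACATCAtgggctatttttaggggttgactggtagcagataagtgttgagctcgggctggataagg
JUNB, chr19:12791236-12791485, plus strand: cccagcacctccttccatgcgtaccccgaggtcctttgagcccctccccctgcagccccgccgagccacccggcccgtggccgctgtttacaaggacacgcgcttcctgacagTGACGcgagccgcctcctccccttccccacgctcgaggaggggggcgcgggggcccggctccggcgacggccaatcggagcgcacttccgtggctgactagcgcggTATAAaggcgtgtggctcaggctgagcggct
JUND, chr19:18281623-18281872, minus strand: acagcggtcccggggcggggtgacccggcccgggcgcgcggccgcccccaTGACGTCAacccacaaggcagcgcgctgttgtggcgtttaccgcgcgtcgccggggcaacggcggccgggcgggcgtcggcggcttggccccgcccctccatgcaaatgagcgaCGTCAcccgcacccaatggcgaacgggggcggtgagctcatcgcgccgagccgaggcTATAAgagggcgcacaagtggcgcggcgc
EGR1, chr5:138465229-138465478, plus strand: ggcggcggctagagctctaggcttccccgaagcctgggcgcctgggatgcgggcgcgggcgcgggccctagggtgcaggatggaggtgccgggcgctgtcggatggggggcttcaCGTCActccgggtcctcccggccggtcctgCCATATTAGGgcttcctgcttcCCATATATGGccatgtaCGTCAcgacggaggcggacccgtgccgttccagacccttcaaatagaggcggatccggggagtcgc
In the promoter of FOS, the subunit that gives AP-1 its fast response, a CRE core lay 64 to 60 bases before the start and TATAA 33 to 29 bases before it. The JUN promoter held TGACATCA, an element that JUN and ATF2 dimers are known to bind, 67 to 60 bases before the start, and a CRE core at 123 to 119. JUNB had a CRE core at 137 to 133 bases and TATAA at 31 to 27. The promoter of JUND was the only one of the 8 in the sequence table with the full TGACGTCA, at 200 to 193 bases, with a further core at 86 to 82 and TATAA at 29 to 25. EGR1, a zinc finger factor of the serum response, had the only CArG boxes in this window, at 105 to 96 and at 83 to 74 bases, and CRE cores at 135 to 131 and 66 to 62.

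Matches to the CRE core were found for 7 of the 8 genes, all but NR4A1, whereas 21.2% of all 35116 promoters of the same length held one. The windows of these 7 genes held from 62% (JUN) to 74.8% (JUND) G and C, beside a median of 58% over all promoters. The shares given here and below were not matched for base composition. TATAA was found for 4 genes (FOS, FOSB, JUNB and JUND) against 13.6% of all promoters. The full CRE occurred in 1.65% of all promoters, TGACATCA in 2.37% and the CArG box in 1.16%. TGANTCA, the AP-1 site itself, was in none of the 8 windows and in 6.57% of all promoters. The short core also lies inside TGACGTCA, so that site in JUND was a match to both. GGGCGG (either strand) was found in 6 of the 8 genes against 42.6% of all promoters, and CCAAT (either strand) in JUN, JUNB and JUND against 32.0%. NR4A1 has a pair of starts, 14883 bases apart, in the sequence table. Its locus spans 36676 bp with 4 transcripts, and any start farther downstream was not searched, so the absence of a CRE core holds for these 2 windows alone. These are matches of letters, and binding at them was not measured. FOSL1 and IER3 are not among these sequences.

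Of the 9 genes analysed for RNA, all but JUND and NR4A1 were within 2-fold of mock after EP400 siRNA, on the scale as deposited. Log2 ratios compare FPKM + 1 after EP400 siRNA with FPKM + 1 after mock siRNA, and so shrink the differences of genes with low levels. Of the 9 genes analysed, 0 were 2-fold or more higher, against 6.11% of all genes, and 2 were 2-fold or more lower, against 22.9% of all genes. Their median log2 ratio was 0.01, beside -0.20 for all 11671 genes. The sum of FPKM over the whole table was 983896 for mock and 584131 for EP400 siRNA, so the choice of scale matters. When both libraries were rescaled to equal sums (the TPM scale), the median of all genes moved up by 0.68, 3 of the 9 genes were 2-fold or more higher (FOSL1, EGR1 and IER3), and only JUND was 2-fold or more lower. On that scale 31.7% of all genes were higher and 5.96% lower.

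**Figure D1:**
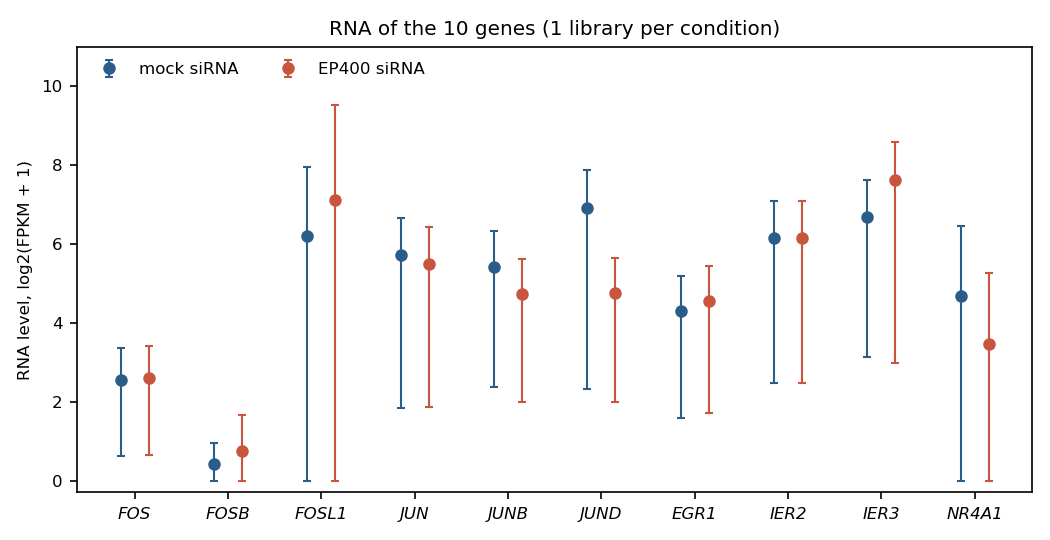
RNA level of each gene as log2(FPKM + 1) in the mock library (blue) and the EP400 siRNA library (red), 1 library per condition. Bars are the authors' confidence limits, summed over transcripts for FOSB, FOSL1 and NR4A1. The limits of the libraries overlap for all 10 genes, and JUND shows the widest distance between its points, with 119 FPKM after mock siRNA and 25.9 after EP400 siRNA.

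Among the FOS family, FOS itself was low and nearly equal in the libraries. FOS (chr14:75745481-75748937, hg19) stood at 4.88 FPKM [0.540 to 9.23] after mock siRNA and 5.10 [0.572 to 9.63] after EP400 siRNA, a log2 ratio of 0.05. FOSB (chr19:45971253-45978437), a close relative of FOS that is likewise induced by signals, was barely present at 0.332 FPKM [0 to 0.933] and 0.669 [0 to 2.19], both below the level at which genes were analysed. The abundant member was FOSL1 (chr11:65659607-65667997), which encodes FRA-1, a FOS protein without the strong activation domain of FOS that is common in invasive tumour cells. FOSL1 stood at 73.3 FPKM [0 to 249] and 139 [0 to 742], with a log2 ratio of 0.92 that ranked above 91.9% of the genes of its chromosome. Its 6 transcripts did not all point the same way. NM_005438, the most abundant, was at 32.5 and 58.9 FPKM, the non-coding NR_125339 at 24.0 and 49.1, and NM_001300844 at 12.0 and 21.7, whereas NM_001300857 was at 4.84 and 2.62. Splitting of fragments among such overlapping transcripts is an estimate. A lower limit of 0 was not confined to such genes, since VIM, with 1 transcript, stood at 618 FPKM [0 to 1387] in mock.

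Within the JUN family, JUND differed most on all 4 scales used, while JUN differed least as deposited and JUNB under TPM. JUN (chr1:59246463-59249785), the strongest transactivator of the family, stood at 51.7 FPKM [2.60 to 101] and 44.2 [2.67 to 85.8], a log2 ratio of -0.22. JUNB (chr19:12902310-12904125), which can restrain JUN activity, stood at 42.1 FPKM [4.18 to 80.0] and 25.4 [3.01 to 47.8], a log2 ratio of -0.71. JUND (chr19:18390504-18392466), the form that is present in resting cells and is the least inducible, stood at 119 FPKM [3.97 to 234] and 25.9 [2.98 to 48.8], 21.7% of mock. Its log2 ratio of -2.16 was lower than that of all but 1.54% of the genes analysed. The signs for JUN and JUNB depended on the scale: under TPM they were at 0.54 and 0.05, and centring on the median of each chromosome put JUNB at 0.34. JUND was more than 2-fold lower under TPM (-1.42), under median centring (-1.96) and under centring by chromosome (-1.11).

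Shares within a family do not depend on the scale of the library. JUND made up 56.0% of the summed FPKM of JUN, JUNB and JUND after mock siRNA and 27.1% after EP400 siRNA. JUN made up 24.3% and 46.3% of that sum and JUNB 19.8% and 26.6%, so the most abundant JUN transcript was JUND in the mock library and JUN in the other. The summed level of the 3 genes was 213 FPKM and 95.5 FPKM, with a log2 ratio of -1.15 as deposited and -0.38 under TPM. In the FOS family, counted with FOSL2 (65.4 and 45.3 FPKM), FOSL1 held 50.9% of the sum after mock siRNA and 73.2% after EP400 siRNA, FOSL2 45.5% and 23.8%, FOS 3.39% and 2.68%, and FOSB 0.230% and 0.352%. That family summed to 144 and 190 FPKM.

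The genes outside AP-1 differed among themselves. EGR1 (chr5:137801181-137805004) stood at 18.8 FPKM [2.03 to 35.5] and 22.4 [2.26 to 42.5], a log2 ratio of 0.24. IER2 (chr19:13261282-13265718), a small nuclear protein of the immediate-early response, was nearly the same in the libraries, with 69.7 FPKM [4.52 to 135] and 70.1 [4.52 to 136]. IER3 (chr6:30710976-30712327), a stress-induced regulator of cell survival, stood at 103 FPKM [7.81 to 198] and 195 [6.96 to 383], a log2 ratio of 0.92 that ranked above 94.1% of the genes of its chromosome. NR4A1 (chr12:52416616-52453291), an orphan nuclear receptor also called NUR77, stood at 24.7 FPKM [0 to 87.7] and 10 [0 to 37.7], a log2 ratio of -1.22. All 4 of its transcripts were lower, from NM_173157 at 13.2 and 5.19 FPKM to NM_001202234 at 0.726 and 0.398. Under TPM the ratio of NR4A1 was -0.51, inside 2-fold.

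The location and the level of these genes bear on how the ratios read. FOSB, JUNB, JUND and IER2 lie on chromosome 19, where 53.4% of 831 genes were 2-fold or more lower and the median log2 ratio was -1.05. IER2, at 0.01, ranked above 90.01% of the genes of chromosome 19, JUNB above 71.0% and JUND above 3.01%. After centring on the chromosome medians, IER2 stood at 1.05, FOSL1 at 1.41 and IER3 at 1.05, JUND at -1.11 and NR4A1 at -1.13, and EGR1 and FOS at 0.03 and 0.06. FOSL1, JUN, JUND, IER2 and IER3 were also in the highest 20% of genes by mean FPKM, where 45.2% of 2335 genes were 2-fold or more lower, 2.78% were higher, and the median log2 ratio was -0.93. Of these 5 genes, 1 was lower (JUND) and 0 were higher. The part of chromosome and level in the results was not tested.

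**Figure D2:**
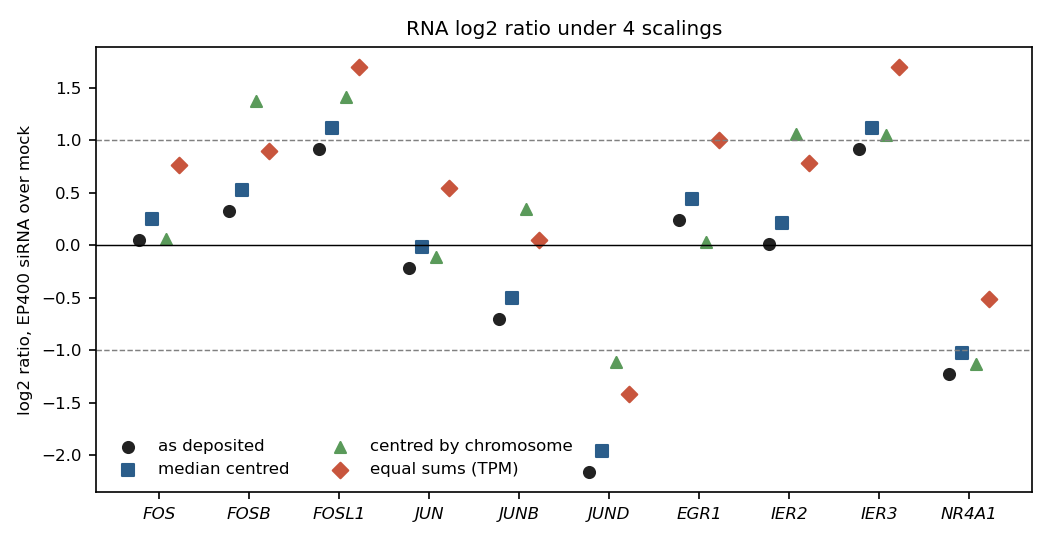
Log2 ratio of EP400 siRNA over mock for each gene with FPKM as deposited (circles), centred on the median of all genes (squares), centred on the median of each chromosome (triangles) and rescaled to equal sums (diamonds); dashed lines mark 2-fold. JUND lies below the lower line on all 4 scales, from -2.16 to -1.11, while JUN and JUNB change sign between scales.

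Genes next to the immediate-early genes were lower after EP400 siRNA. This comparison was added after the values had been seen. Of 20 genes within 20 kb, 16 were analysed, around 7 of the 10 genes, and FOS, JUN and JUND had none. The log2 ratio was below 0 for 16 of 16, from -2.67 (REEP2, near EGR1) to -0.47 (ATG101, near NR4A1), with a median of -1.20, and 13 were 2-fold or more lower. Over all genes 57.3% were below 0 and, as given above, 22.9% were 2-fold or more lower. Of the 16, 6 lie on chromosome 19 and 11 were in the highest 20% of genes by mean FPKM, where the shares of lower genes were larger (53.4% and 45.2%). Under TPM 15 were below 0 (35.7% of all genes), 3 were 2-fold or more lower and the median was -0.51.

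The ratio of the immediate-early gene was above that of its neighbour in 14 of the 16 pairs, and the other 2 pairs were those of NR4A1. The pairs are not independent, since 6 share FOSL1 and 3 share JUNB, and by gene 6 of 7 were above all of their neighbours. The 7 include FOSB, paired with RTN2, although FOSB itself was below the level at which genes were analysed. The share of such pairs over all genes was not computed, so the count cannot be called particular to these genes. JUND, which had the lowest ratio (-2.16), had no analysed neighbour and is not among the pairs. Beside NR4A1, at -1.22, ATG101 stood at -0.47 and TAMALIN at -1.15. Under TPM the immediate-early gene was above in 15 pairs, and the exception was ATG101 beside NR4A1. STX10, whose locus lies 94 bp from that of IER2, stood at 94.3 and 27.6 FPKM, a log2 ratio of -1.73 beside 0.01 for IER2. FLOT1, 523 bp from IER3, stood at 183 and 89.7 FPKM, a log2 ratio of -1.02 beside 0.92. CCDC85B, 501 bp from FOSL1, stood at 201 and 60.5 FPKM, a log2 ratio of -1.71 beside 0.92, and EFEMP2, also near FOSL1, was at 65.9 and 12.4 FPKM. PRDX2, a peroxidase gene near JUNB, was at 324 and 92.7 FPKM, a log2 ratio of -1.80 beside -0.71.

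**Figure D3:**
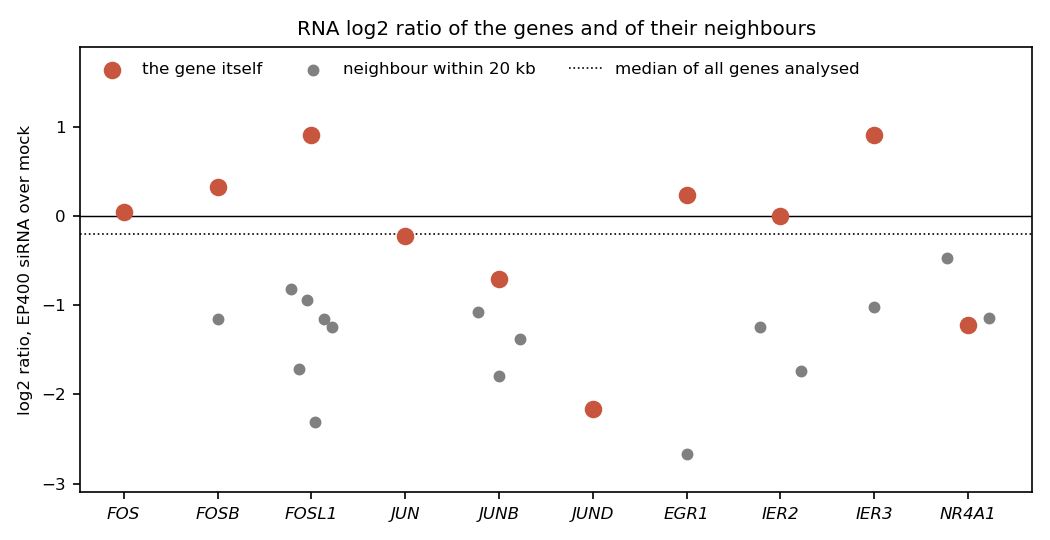
Log2 ratio of EP400 siRNA over mock for each of the 10 genes (large red points) and for analysed genes within 20 kb (grey points); the dotted line is the median of all genes, -0.20. All 16 neighbours lie below 0, and every neighbour but those of NR4A1 lies below the gene it flanks.

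Genes of the wider pathway lay on both sides of 0. Their lists were drawn up with earlier results of these data known, and the counts describe these libraries alone. Beside each count stand the shares over all genes, 6.11% higher and 22.9% lower, with a median of -0.20. Of 21 known AP-1 target genes listed, 17 were analysed, 10 were 2-fold or more higher, 0 were lower, and the median log2 ratio was 1.09. Of the 10, CXCL8 and SPRY4 (0.610 and 2.37 FPKM) were below 1 FPKM in mock. These passed the filter on mean level through the EP400 siRNA library alone. MMP3, the protease stromelysin, stood at 1.55 and 80.1 FPKM (log2 ratio 4.99), the chemokine gene CXCL8 at 0.435 and 23.7 (4.10), the growth factor gene HBEGF at 4.04 and 22.3 (2.21), and the urokinase gene PLAU at 38.4 and 166 FPKM (2.08). Many of these genes also answer to NF-kappaB and other factors, and AP-1 protein or its binding was not measured. Under median centring 12 were higher (10.8% of all genes) and 0 lower (15.6%), and under TPM 12 were higher (31.7%) and 0 lower (5.96%).

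Of the partners of AP-1, 2 of 11 analysed genes were higher (6.11% of all genes) and 2 lower (22.9%), with a median of -0.52. BATF2 stood at 1.45 and 7.99 FPKM (1.88) and the small MAF gene MAFF at 11.9 and 31.0 (1.31), whereas MAF was at 2.26 and 0.405 (-1.22) and MAFK at 118 and 58.3 FPKM (-1.001). MAF passed the filter on mean level through the mock library alone. Among other immediate-early genes 7 of 24 analysed were higher (6.11% of all genes) and 5 lower, near the share of all genes (22.9%), with a median of -0.03. RHOB, a small GTPase, was at 58.5 and 13.5 FPKM (-2.04), while TRIB1 was at 3.26 and 14.2 (1.83), TNFAIP3, a brake on NF-kappaB, at 1.06 and 6.04 (1.77), and the kinase gene SGK1 at 1.67 and 8.06 FPKM (1.76). SRF, counted in this list, was at 35.5 and 14.0 FPKM (-1.29) and is named for its role at the CArG box. The TPM scale gave 10 higher and 1 lower (31.7% and 5.96% of all genes).

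Of the ERK, JNK and p38 kinases and their phosphatases, 2 of 19 analysed were higher (6.11% of all genes) and 5 lower, near the share of all genes (22.9%), with a median of 0.13. Under TPM 9 were higher and 1 lower (31.7% and 5.96% of all genes). As deposited, the 2 higher genes were DUSP5 and DUSP10. DUSP10 (0.984 and 3.52 FPKM) passed the filter on mean level through the EP400 siRNA library alone. MAPK3, which encodes ERK1, stood at 115 and 31.9 FPKM (-1.82), MAP2K2, its upstream kinase MEK2, at 168 and 60.4 (-1.46), RPS6KA4, a kinase of histone H3 and CREB, at 122 and 36.1 (-1.72), and the ERK phosphatase gene DUSP5 at 9.01 and 32.8 FPKM (1.75). The last list holds TCF and CREB factors together with coactivators of SRF and CREB, which do not themselves bind the CArG box or the CRE. Of its 12 analysed genes 0 were higher (6.11% of all genes) and 4 lower (22.9%), with a median of -0.39. The coactivator genes MRTFA, CRTC1 and CRTC2 and the TCF gene ELK1 made up the 4, with MRTFA at 35.0 and 9.78 FPKM (-1.74), CRTC1 at 7.84 and 2.62 (-1.29), CRTC2 at 36.4 and 17.4 (-1.02) and ELK1 at 60.7 and 29.5 FPKM (-1.02). Under TPM 4 of this list were higher and 1 lower (31.7% and 5.96% of all genes).

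EP400 peaks were found within 2 kb of a locus end for 8 of the 10 genes, against 35.3% of all genes analysed and 47.4% of those in the highest 20% by mock FPKM. FOS and NR4A1 had none, and their nearest EP400 peaks were 384731 bp and 68966 bp from the locus. EP400 peaks were short, with a median width of 50 bp over the 18048 of the list. The files give no strand, so starts were taken as the 5′ end of the hg19 locus by the strand of the RefSeq promoter, which was at hand for 8 genes. For 4 of these 8 an EP400 peak lay within 1 kb of the start (27.6% of all genes with a start): JUNB at 91 bp, JUND at 116 bp, FOSB at 398 bp and EGR1 at 631 bp. For NR4A1 the start used here and below is the upstream end of a 36676 bp locus. Its other starts were not examined. In JUN the peak was past the other end of the gene, 3635 to 3784 bp from the start, and in IER2 it was 4569 to 4618 bp from the start. At IER3, EP400 peaks lay from -975 to -776 and from 1175 to 1224 bp of the lower end of the locus. Most EP400 peaks at FOSL1 lay at its lower end, beside CCDC85B. Of the 23 EP400 peaks within 20 kb of the 10 loci, 17 overlapped a mock Pol II peak (25.5% of the 18048 EP400 peaks of the whole list), 14 a mock MED26 peak (22.1%) and 14 an H3K18ac peak (27.9%). A mock H3.3 peak was overlapped by 9 (10.4%), a mock H2AZ peak by 5 (17.4%) and an H3K4me1 peak by 2 (7.4%). After EP400 siRNA, 15 of the same 23 positions overlapped a Pol II peak (19.4% of the whole list), 13 a MED26 peak (17.7%), 2 an H3.3 peak (3.83%) and 1 an H2AZ peak (6.58%). These shares were not matched for distance to genes.

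H3.3 peaks near the gene starts were listed for most of these genes after mock siRNA. After EP400 siRNA they were listed for none, and for few of all genes. An H3.3 peak lay within 1 kb of the start for 7 of the 8 genes with a start in the mock list, all but IER2, and for 0 of the 8 in the EP400 siRNA list. Over all 9082 genes with a start these shares were 52.2% and 11.6%, so the later count was near the share of all genes. The shares were not matched for RNA level. This window was chosen after the values had been seen, and counts of 6 and 0 were found with 0.5 kb and 8 and 0 with 2 kb. Without the 4 genes of chromosome 19 the counts were 4 of 4 and 0 of 4, beside 51.1% and 11.8% of the genes of the other chromosomes. On chromosome 19 itself 65.3% and 9.16% of genes had such a peak.

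At the whole locus and 2 kb on each side, all 10 genes had an H3.3 peak in mock (79.5% of all genes) and 3 had one after EP400 siRNA (55.8% of all genes). The 7 with none later were FOS, FOSB, JUNB, JUND, IER2, IER3 and NR4A1. Such a pattern was seen for 29.4% of all genes, or 37% of those with a mock peak. On chromosome 19 the latter share was 57.6%, and on the other chromosomes, where 3 of the 6 genes (FOS, IER3 and NR4A1) showed it, 35.2%. The length covered by H3.3 peaks was 6594 bp in mock and 200 bp after EP400 siRNA at FOSL1. It was 5500 bp and 0 at NR4A1, 2900 bp and 0 at FOSB, 2091 bp and 0 at JUNB, and 700 bp and 0 at FOS. JUN was the exception, with 1100 bp in mock and 1700 bp after EP400 siRNA. Its mock peaks ran from 385 to 1184 and from 1985 to 2284 bp of the start, whereas those after EP400 siRNA ran from 2685 to 3784 and from 4485 to 5084 bp, and the former of these covered the EP400 peak past the end of the gene. At EGR1, a mock peak at 20 to 1019 bp had no counterpart, and a single peak at 2920 to 3019 bp was listed after EP400 siRNA.

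Within 20 kb of the 10 loci, 170 H3.3 peaks were listed in mock and 17 after EP400 siRNA. Of the 170, 12 (7.06%, Wilson 95% interval 4.08 to 11.9) were overlapped by a later peak, beside 5.01% over the whole list. In the other direction, 13 of the 17 later peaks (76.5%, Wilson 95% interval 52.7 to 90.4) overlapped a mock peak, beside 10.5% over the whole list. The whole H3.3 lists thus shared few positions, and most later peaks lay where mock listed none. The covered length was 60322 bp and 4525 bp, 7.50% of mock, beside 40.1% over the whole lists, where 51.9% as many peaks were listed. The mean width was 355 bp and 266 bp. On chromosome 19 as a whole 6178 and 710 H3.3 peaks were listed, 11.5% of mock, against 55.3% on the other chromosomes. The 4 genes of chromosome 19 had 82 peaks in mock and 6 after EP400 siRNA, and the other 6 had 88 and 11. The surroundings of FOS held 6 H3.3 peaks in mock and 0 after EP400 siRNA, and chromosome 14 as a whole listed 102.7% as many H3.3 peaks as in mock. Counts this small cannot set FOS apart from its chromosome. Wilson intervals cover counting error only.

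**Figure D4:**
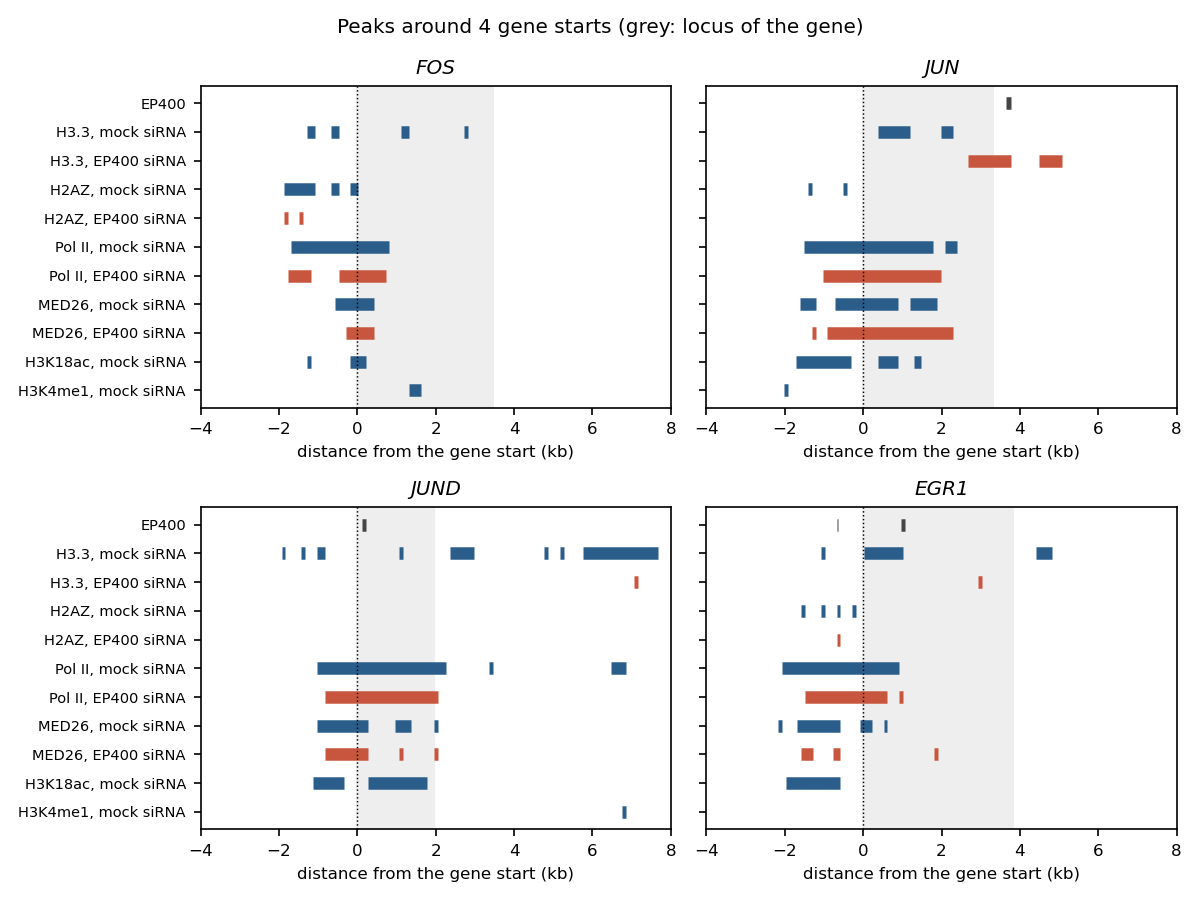
Positions of peaks around FOS, JUN, JUND and EGR1, as distance from the gene start in kb along the direction of transcription; each row is 1 peak list, with mock in blue, EP400 siRNA in red, EP400 ChIP in dark grey and the locus shaded. Pol II peaks cross the dotted line at the start in both conditions, as do MED26 peaks at FOS, JUN and JUND. H3.3 peaks within 1 kb of the start appear in the mock rows alone.

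For H2AZ the shares of genes with a peak were near those of all genes. FOS, FOSB, JUN, JUNB, EGR1, IER2 and NR4A1 had one at the locus and 2 kb in mock, 7 of 10 beside 83.3% of all genes, and 5 of 10 had one after EP400 siRNA, beside 63.2%. FOSL1, JUND and IER3 had none in either list. JUN and JUNB had a mock H2AZ peak and none after EP400 siRNA, 2 of 10 genes beside 21.4% of all genes and 25.7% of those with a mock peak. At FOS the covered length was 1200 bp and 200 bp, at NR4A1 1800 bp and 400 bp, and at IER2 300 bp in both. Within 1 kb of the start, 6 of 8 genes had an H2AZ peak in mock and 4 after EP400 siRNA, against 70.8% and 51.5% of all genes. Within 20 kb 49 peaks were listed in mock and 25 after EP400 siRNA. Of the 49, 17 were overlapped (34.7%, Wilson 95% interval 22.9 to 48.7), beside 28.1% over the whole list. The covered length after EP400 siRNA was 33.3% of mock, beside 37.5% over the whole lists.

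Pol II peaks were listed at the locus of all 10 genes in each condition, beside 91.9% and 87.3% of all genes. Thus 0 of the 10 had a mock peak without a later one, beside 5.04% of all genes and 5.48% of those with a mock peak. The start itself was covered by a Pol II peak in 8 of 8 genes after mock siRNA and in 6 of 8 after EP400 siRNA, where the nearest peak lay 182 bp from the start of IER2 and 185 bp from that of NR4A1. The same shares over all genes were 74.9% and 62.3%. Within 1 kb of the start a Pol II peak was listed for 8 of 8 in both conditions (81.8% and 75.8% of all genes). The covered length at the locus and 2 kb was shorter after EP400 siRNA at 10 of 10 genes, and at 87.4% of all genes with a mock peak. It was 6300 bp and 3800 bp at IER2, 2300 bp and 900 bp at FOSB, 4800 bp and 3100 bp at NR4A1, and 4391 bp and 4200 bp at JUNB. At FOS a single peak from -1680 to 819 bp of the start was listed in mock, and 2 peaks, from -1780 to -1181 and from -480 to 719 bp, after EP400 siRNA. At JUND, whose RNA was at 21.7% of mock, the Pol II peak ran from -1034 to 2265 bp in mock and from -834 to 2065 bp after EP400 siRNA, so the whole gene was covered in both lists. At IER3, with the RNA ratio of the opposite sign, the covered length was also shorter, 3300 bp and 2700 bp. Within 20 kb 61 peaks were listed in mock and 41 after EP400 siRNA. Of the 61, 32 were overlapped (52.5%, Wilson interval 40.2 to 64.5), beside 48.2% over the whole list. In the other direction, 40 of the 41 later peaks (97.6%) overlapped a mock peak, beside 73.5% over the whole list. The covered length after EP400 siRNA was 59.9% of mock, beside 61.5% over the whole lists.

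MED26, the Mediator subunit that contacts elongation factors, was likewise listed at all 10 genes in each condition, beside 87.5% and 85.5% of all genes. Here too 0 of the 10 had a mock peak without a later one, beside 4.22% of all genes and 4.82% of those with a mock peak. A MED26 peak covered the start in 7 of 8 genes after mock siRNA, all but NR4A1, and in 4 of 8 after EP400 siRNA (FOS, JUN, JUNB and JUND), beside 53.2% and 46.8% of all genes. Within 1 kb all 8 had a MED26 peak in each list (74.8% and 71.2% of all genes). In the others the nearest later peak was 48 bp from the start at FOSB, 82 bp at IER2, 85 bp at NR4A1 and 581 bp at EGR1. The covered length was 1500 bp and 600 bp at EGR1, 1200 bp and 400 bp at FOSB, and 3400 bp and 2300 bp at IER2. It was the same at NR4A1 (1700 bp) and longer after EP400 siRNA at JUN (2700 bp and 3300 bp) and at IER3 (2500 bp and 2600 bp). Within 20 kb 70 peaks were listed in mock and 63 after EP400 siRNA, and 41 of the 70 (58.6%, Wilson 95% interval 46.9 to 69.4) were overlapped, beside 49.0% over the whole list. The covered length after EP400 siRNA was 72.7% of mock, beside 78.0% over the whole lists.

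**Figure D5:**
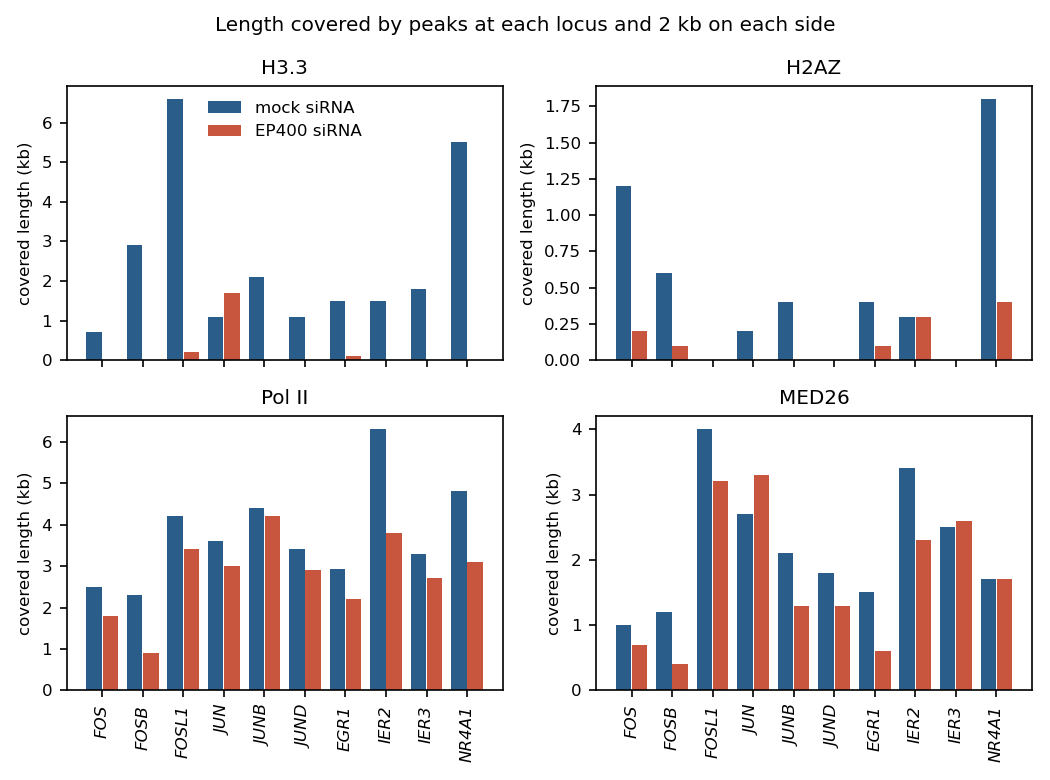
Length covered by peaks at each locus and 2 kb on each side, in kb, for H3.3, H2AZ, Pol II and MED26 after mock siRNA (blue) and EP400 siRNA (red), 1 library each, with a scale of its own for each panel. H3.3 bars are at 0 after EP400 siRNA for 7 of the 10 genes, while Pol II and MED26 bars are present for all 10.

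The histone marks were measured after mock siRNA alone. H3K18ac, a mark left by the acetyltransferases CBP and p300 at active promoters and enhancers, lay within 1 kb of the start for 7 of 8 genes, all but FOSB, against 68% of all genes. H3K4me1, which is typical of enhancers, was within 1 kb of the start for FOSB and NR4A1, against 10.6% of all genes. Within 20 kb, FOSL1 had 10 H3K18ac peaks covering 16800 bp, IER3 9 peaks covering 15500 bp and IER2 12 peaks covering 11500 bp. These genes also had 14, 17 and 9 H3K4me1 peaks. EGR1 stood at the other end with 1 H3K18ac peak and 0 H3K4me1 peaks, the nearest of the latter 188820 bp from its start, and FOS had 4 and 1, JUN 3 and 1.

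Presence or absence over all 11 peak lists, at the locus and 2 kb, gave a profile for each gene. FOS and NR4A1 shared the same profile (9 of 11 lists, without EP400 and later H3.3), along with 3.56% of the 11671 genes. TXNDC15, PACS2 and ARHGAP22 had it at the RNA level closest to that of FOS, and CSNK2A3, ACOT8 and HSD17B8 at that closest to NR4A1. The profile of EGR1 was the most common, with 651 genes (5.58%; closest in level DDX42, MBTPS1 and FAM168B), followed by that of JUN with 544 (PA2G4, STARD3 and AJUBA). FOSB had the rarest, with 15 genes (GCH1, GDAP2 and C5orf22), ahead of JUND with 30 (C11orf24, KXD1 and NOP16) and IER3 with 49 (PDLIM7, STUB1 and SF3B4). Profiles of JUNB were shared by 124 genes (PCNX3, MCM4 and IFT25), those of FOSL1 by 144 (TGFB1, BCAM and PLCD3) and those of IER2 by 286 (P3H3, ARPC4 and SLC35B1). Apart from FOS and NR4A1, no pair of the 10 genes had the same profile.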

How the data were processed

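RNA of U2OS cells was given by the authors as deposited FPKM per RefSeq transcript, with confidence limits, for 1 library per siRNA. ChIP peaks were deposited as chromosome, start and end without a score, so a signal is not available. Tools named by the submitters' processing notes are TopHat2 2.0.8, Bowtie 0.12.9 and Cuffdiff 2.0.2, with build hg19. For the peak caller, its threshold and control, and the FPKM normalization, nothing is given in the sources used here. Names were assigned to 47551 of 48669 rows (97.7%) from a GRCh38.p14 RefSeq table. Rows under 200 nt (2116) were left out, FPKM and limits were summed per gene, and 122 genes with a failed estimate were dropped. No test was possible. A gene counted as different at 2-fold, with a pseudocount of 1. Peaks were counted at 1 bp of overlap, on coordinates counted from 1. Distances at FOSL1 and IER3 were taken from the lower end of the locus. Motifs were searched as exact letters. Named genes were all 10, EP400, up to 4 genes per companion list by the size of their log2 ratio, and up to 3 per profile. Neighbouring genes, FOSL2, SRF and cell type markers were named besides, after their values were seen. The 10 genes and all lists were chosen with earlier results of these data known. Scripts (Python 3.11.15, pandas 2.3.3, numpy 2.4.6) were tested on simulated data. Other scales, filters, windows, overlaps and equal peak numbers were tried.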

Additional observations from a re-analysis of the deposited data

How the results depend on the processing

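The median log2 ratio of the 9 genes analysed (0.01) was 0.21 with median centring, 0.76 under TPM, 0.71 under TPM with rows under 200 nt kept, and -0.11 where the mean FPKM had to reach 5, which leaves FOS out. The number 2-fold or more higher (0) was 2 with median centring, 3 under TPM, 2 under TPM with short rows kept, and 3 with centring by chromosome, and the number lower (2) was 1 under TPM with and without short rows. The percentage of mock H2AZ peaks overlapped (34.7) was 50 when the widest mock peaks were taken in equal number, and that of Pol II (52.5) was 66.7 with equal numbers and 64.7 within 10 kb. The number of loci with mock H3.3 peaks and none later (7) was 3 at 20 kb and 3 without the genes of chromosome 19, while that for H2AZ (2) was 1 with equal numbers and 1 without chromosome 19. Mock H3.3 peaks within 1 kb of the start (7 of 8 genes) were found in 4 of 4 without chromosome 19. The other 60 such values were within 1.5 times of the reported count, within the interval of the reported share or within 0.1 of the median, and 0 changed the sign of a 2-fold difference. Centring by chromosome, leaving out chromosome 19 and the windows at the starts were chosen after seeing the data. No paired analysis was possible because each siRNA condition has 1 library and the 3 numbered EP400 immunoprecipitations came as 1 list. Unknown depth limits every comparison of peak lists, since a shallower library can list fewer and shorter peaks.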
